A study of Mus musculus with 5 samples.

Results

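The enzyme families that oxidise alcohols and aldehydes or reduce carbonyl compounds were described in mouse liver, namely the alcohol dehydrogenases (ADH), the aldehyde dehydrogenases (ALDH) and the aldo-keto reductases (AKR). Members were the genes whose platform symbol began with Adh, Aldh or Akr and a digit, each read by its brightest probe. This gave 37 of 16637 named genes, made up of 5 ADH, 20 ALDH and 12 AKR genes on 44 probes. Liver RNA was read on 1-colour Phalanx Mouse OneArray slides, 1 array for each group. The groups were wild-type (WT) C57BL/6 mice on a high-fat diet with nordihydroguaiaretic acid (NDGA, a plant lignan that inhibits lipoxygenases), WT mice on the high-fat diet alone, ob/ob mice on chow with NDGA, ob/ob mice on chow, and WT mice on chow. NDGA was given at 2.5 g per kg of food, the diets lasted 16 weeks, and the ob/ob mice, which lack leptin throughout the body, carry the C57BL/6 background per the labels. The design text names 3 animals per group. Pooling of their RNA, and the age and sex of the mice, were not given in the labels used here.

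ADH enzymes oxidise ethanol, retinol and other alcohols to aldehydes with NAD, and ALDH enzymes carry the aldehydes on to acids. In liver the ALDH family also serves folate, proline, valine, lysine, tryptophan and carnitine metabolism and clears fatty aldehydes from membrane lipids. AKR enzymes mostly run the other way, reducing aldehydes and ketones with NADPH, and several of them act on steroids and bile acid precursors.

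With 1 array per group there is no spread between mice and no test, so each difference below is between 2 arrays. Values were brought to a common distribution by quantile normalization, and differences are on the log2(intensity + 50) scale, which understates those of dim probes. The deposited intensities quoted for single arrays were not normalized. The ob/ob NDGA array was brighter than the others, with a median intensity of 71.0 against 38.1 to 47.0, so its deposited values are high for most probes. Where a gene had 2 bright probes, the SD of a difference per probe was 0.29 to 0.46, and smaller differences are within the disagreement between probes of a single gene. Of 12 hepatocyte markers 10 were on the array and 8 expressed, with Alb and Ahsg at or near saturation on every array. Among those below saturation, the urea cycle enzyme Cps1 read 1984 on the WT high-fat NDGA array, 3233 on the WT high-fat array, 9688 on the ob/ob NDGA array, 1405 on the ob/ob array and 3053 on the WT chow array. Its log2 difference was -0.81 in ob/ob and 1.71 with NDGA in ob/ob, and that of the transferrin gene Trf was -0.77 with NDGA on the high-fat diet and 1.03 with NDGA in ob/ob. The 8 expressed markers had medians of 0.09 for high-fat diet, -2.04e-05 for NDGA on it, -0.06 for ob/ob and 0.26 with NDGA in ob/ob. Apob, at 0.18 in ob/ob and -0.64 with NDGA in ob/ob, had signs opposite to those of Cps1.

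Genes whose 2-array mean reached the median of all genes are called expressed in that comparison. By this rule 25 members were expressed in all 4 comparisons, and Aldh7a1, which breaks down lysine, in the high-fat and ob/ob comparisons alone. The other 11 were dim throughout, with deposited intensities of 2.87 to 70.8. They were Adh6a, Aldh1a3, Aldh3a1, Aldh5a1, Aldh18a1, Akr1c12, Akr1c13, Akr1c14, Akr1c18, Akr1c21 and Akr1e1. Of the 25, 3 were too bright to measure on some arrays. Akr1a1, an aldehyde reductase of vitamin C synthesis in mice, was saturated at 65600 or more on all 5 arrays, so no difference could be read for it. Aldh2, the mitochondrial acetaldehyde dehydrogenase, and Aldh1a1, which makes retinoic acid, were saturated on the WT high-fat array and on the ob/ob NDGA array.

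RefSeq promoter windows (GRCm38.p6, 250 bases before to 50 after the start) matched 30 of the 37 members, in 33 windows. The windows of Aldh1b1, Aldh3a2 and Aldh1l1 are shown because Aldh1b1 passed 2-fold with NDGA in ob/ob, the probes of Aldh3a2 disagreed most and Aldh1l1 had the largest ob/ob difference among members with a window. Capitals mark each match, on either strand, to any motif searched.
Aldh1b1, chr4:45798772-45799071, plus strand: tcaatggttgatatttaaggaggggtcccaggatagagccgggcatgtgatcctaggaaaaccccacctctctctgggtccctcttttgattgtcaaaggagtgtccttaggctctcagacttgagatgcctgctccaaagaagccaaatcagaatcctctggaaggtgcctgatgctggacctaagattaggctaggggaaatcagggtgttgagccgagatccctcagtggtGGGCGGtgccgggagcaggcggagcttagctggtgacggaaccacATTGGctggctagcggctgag
Aldh3a2, chr11:61267137-61267436, minus strand: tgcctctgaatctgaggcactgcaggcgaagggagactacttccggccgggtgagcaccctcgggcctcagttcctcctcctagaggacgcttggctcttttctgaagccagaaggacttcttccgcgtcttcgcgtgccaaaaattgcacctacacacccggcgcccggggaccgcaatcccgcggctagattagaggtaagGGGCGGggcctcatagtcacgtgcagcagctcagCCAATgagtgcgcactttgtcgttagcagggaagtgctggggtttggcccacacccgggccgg
Aldh1l1, chr6:90550543-90550842, plus strand: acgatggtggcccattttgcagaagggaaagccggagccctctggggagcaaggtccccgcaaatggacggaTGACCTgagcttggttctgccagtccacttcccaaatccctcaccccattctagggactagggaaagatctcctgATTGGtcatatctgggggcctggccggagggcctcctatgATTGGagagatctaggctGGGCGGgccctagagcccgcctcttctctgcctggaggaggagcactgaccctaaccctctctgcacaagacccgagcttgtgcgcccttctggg

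The motifs searched were the antioxidant response element core TGACNNNGC, the nuclear receptor half-site AGGTCA, its direct repeat with 1 base between the copies, as PPAR receptors bind, the CCAAT box CCAAT and the GC box GGGCGG, each on both strands. The half-site is part of the direct repeat, and its reverse complement shares the letters TGAC with the antioxidant core. The antioxidant core was in 3 of 33 member windows (Adh6a, Aldh1a2 and Aldh9a1) and in 12.4% of all 32851 windows. The direct repeat was in 0 of 33 member windows and in 0.0396% of all windows. The half-site was in 7 member windows, Aldh1l1 among them, and in 16.3% of all windows. CCAAT was in 17 member windows and 37.4% of all windows, and GGGCGG in 10 member windows and 35.7% of all windows. Each printed window holds a GC box and a CCAAT box, and that of Aldh1l1 also the half-site. These are matches of letters, and binding was not measured.

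**Figure D1:**
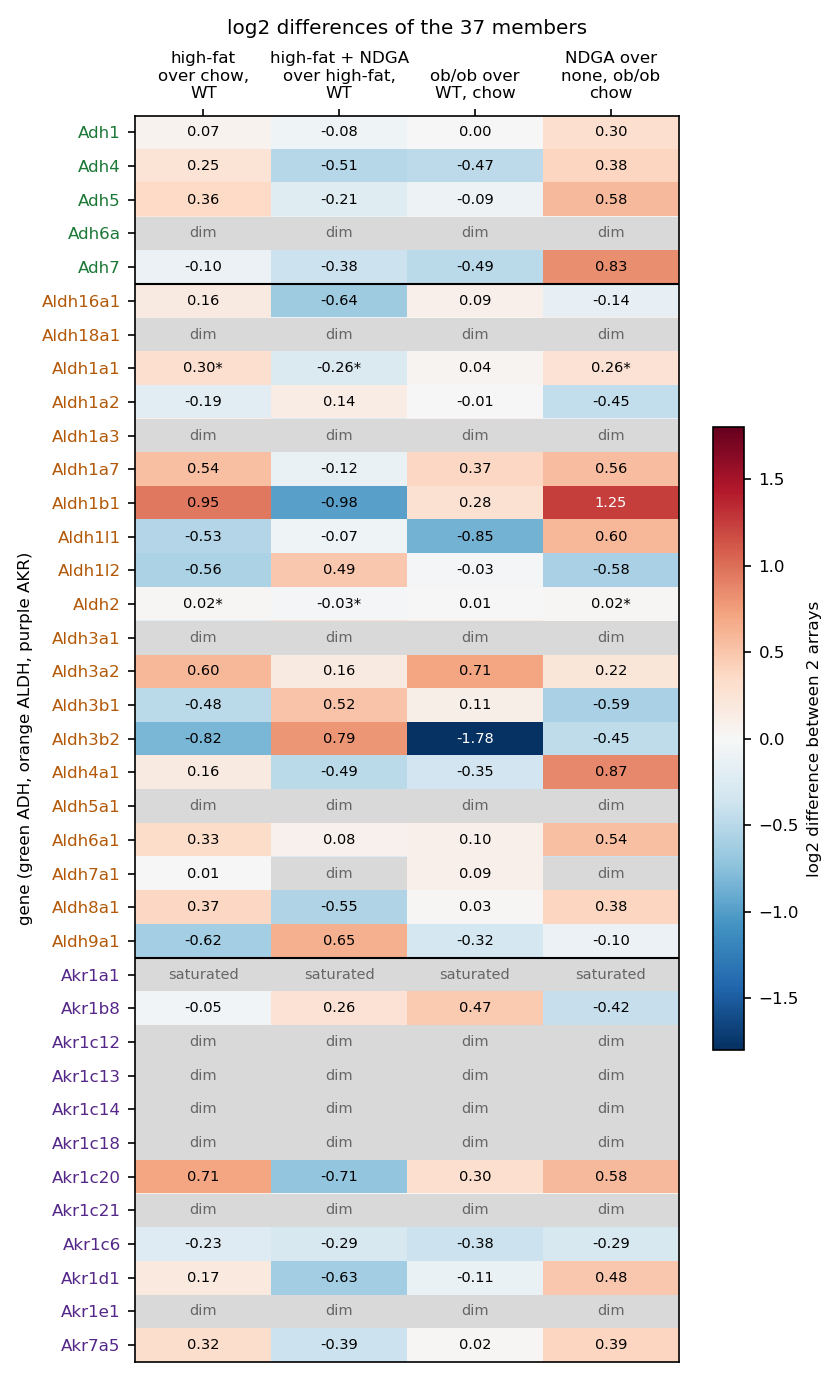
Log2 differences between 2 arrays (colour and number) for the 37 members (rows, by family) in the 4 comparisons (columns). Grey cells were below the filter on dim genes or saturated on both arrays, and an asterisk marks a value for which 1 of the 2 arrays was saturated. Aldh3b2 in ob/ob (-1.78) and Aldh1b1 with NDGA in ob/ob (1.25) are the values past 2-fold.

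How diet-induced obesity changed these enzymes is the question of the high-fat diet set against chow in WT mice. The members read highest against chow were Aldh1b1 (0.95), the AKR1C steroid reductase Akr1c20 (0.71), the fatty aldehyde enzyme Aldh3a2 (0.60) and Aldh1a7 (0.54), a relative of the retinaldehyde dehydrogenases. The lowest were Aldh3b2 (-0.82), which acts on lipid aldehydes, the carnitine synthesis enzyme Aldh9a1 (-0.62), and both formyltetrahydrofolate dehydrogenases, Aldh1l2 (-0.56) and Aldh1l1 (-0.53). These 8 lay at least 0.5 from 0, of 26 expressed members, as did 23.6% of all expressed genes. Past 2-fold there were 0 of 26 members higher, where 2.13% of all 8319 expressed genes were, and 0 lower, where 1.35% were. The member median was 0.11, against -0.01 for all expressed genes, and 17 of 26 were above 0, beside 49.3% of all expressed genes. Akr1a1 enters these counts and those below at its saturated value.

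The effect of NDGA in diet-obese WT mice was read from the high-fat array with NDGA set against the one without. Lowest with NDGA were Aldh1b1 (-0.98), Akr1c20 (-0.71), Aldh16a1 (-0.64), the bile acid reductase Akr1d1 (-0.63), the tryptophan pathway enzyme Aldh8a1 (-0.55) and Adh4 (-0.51). Highest were Aldh3b2 (0.79), Aldh9a1 (0.65) and the lipid aldehyde enzyme Aldh3b1 (0.52). All 9 had the opposite sign on the high-fat diet, but both comparisons use the WT high-fat array, in opposite positions, so such a reversal can come from that array alone. They were the 9 of 25 expressed members that lay at least 0.5 from 0, beside 26.4% of all expressed genes. Past 2-fold there were 0 members higher (0.914% of all expressed genes) and 0 lower (1.57%). The member median was -0.12, against -0.03 for all expressed genes, with 8 members above 0 and 16 below. Of all expressed genes 47.0% were above 0. The WT high-fat NDGA array also stood apart in skeletal muscle markers, of which 26 were on the array. Without the filter on dim genes, 14 of the 26 were at least 2-fold higher, beside 0.493% of all 16637 genes. The median of the 26 was 1.21. Their summed normalized intensity was 20091 on that array and 6399 to 8039 on the other 4, and creatine kinase Ckm read 1501 on it, 11.7 on the WT high-fat array and 12.4 on the WT chow array. Ckm also read 316 on the ob/ob NDGA array, against 12.4 on the ob/ob array. The part of muscle RNA in the member differences was not tested.

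Genetic obesity was read from ob/ob set against WT, both on chow. Aldh3b2 was 1 of 26 expressed members at least 2-fold lower in ob/ob (-1.78), beside 1.82% of all expressed genes, and 0 were higher, beside 1.03%. The other members at least 0.5 from 0 were the folate enzyme Aldh1l1 (-0.85) and the fatty aldehyde enzyme Aldh3a2 (0.71). Together these 3 of 26 compare with 10.8% of all expressed genes. Adh7 (-0.49), Adh4 (-0.47) and Akr1b8 (0.47) came next in size. With median centring Akr7a5, Aldh16a1, Aldh1a1, Aldh2, Aldh3b1, Aldh6a1 and Aldh8a1, all at 0.01 to 0.11 on the quantile scale, turned below 0. The member median was 0.00 (0.00478), against 0.04 for all expressed genes.

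The effect of NDGA in genetic obesity was read from ob/ob mice on chow with NDGA set against ob/ob mice on chow. Aldh1b1 was 1 of 25 expressed members at least 2-fold higher with NDGA (1.25), beside 6.80% of all expressed genes, and 0 were lower, beside 0.493%. Next were the proline enzyme Aldh4a1 (0.87), the retinol-oxidising Adh7 (0.83), Aldh1l1 (0.60), Akr1c20 (0.58) and Adh5 (0.58). Lowest were Aldh3b1 (-0.59) and Aldh1l2 (-0.58). A total of 10 of 25 members lay at least 0.5 from 0, beside 37% of all expressed genes. Akr1b8, Akr1c6, Aldh16a1, Aldh1a2, Aldh1l2, Aldh3b1, Aldh3b2 and Aldh9a1 were below 0 on the quantile scale. Of these, Akr1c6, Aldh16a1 and Aldh9a1 turned above 0 with median centring and Aldh16a1 after loess, while all 8 did without normalization, where the median of all expressed genes was 0.68. The member median was 0.30, against -0.09 for all expressed genes, a gap of 0.39 to 0.41 under quantile normalization, no normalization, median centring and loess. Without normalization 14 members were at least 2-fold higher, where 32.5% of all expressed genes were at least 2-fold higher. With each array centred on its median 8 members were, beside 15% of all expressed genes, and after loess 2, Aldh1b1 (1.36) and Aldh4a1 (1.02), beside 9.56%.

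**Figure D2:**
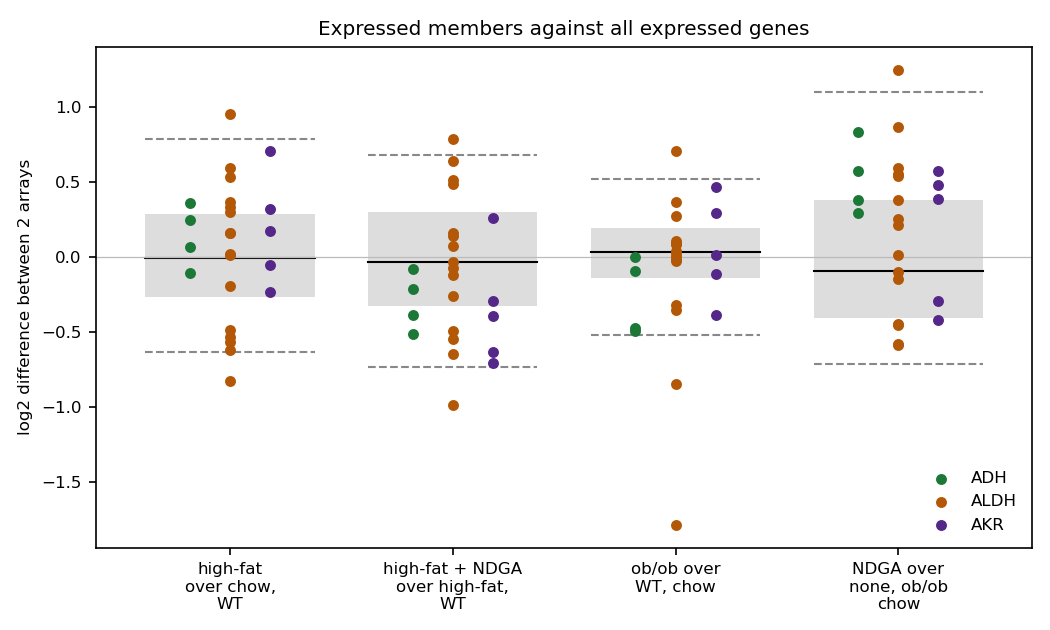
Log2 differences of the expressed members (points, by family) in the 4 comparisons. Grey boxes span the 25th to 75th percentile of all expressed genes, black lines their median and dashed lines their 5th and 95th percentiles. Above 0 with NDGA in ob/ob lie all 4 expressed ADH genes (0.30 to 0.83) and 43.9% of all expressed genes. Akr1a1, saturated on both arrays, is not drawn.

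Aldh1b1 encodes a mitochondrial ALDH that oxidises acetaldehyde and other short aldehydes. Its deposited intensity was 182 on the WT high-fat NDGA array, 370 on the WT high-fat array, 934 on the ob/ob NDGA array, 193 on the ob/ob array and 172 on the WT chow array. The ob/ob NDGA array was highest and the WT high-fat array next, while the other 3 lay close together. Against WT chow the high-fat array was 0.95 higher on the log2 scale and the ob/ob array 0.28 higher, while NDGA gave -0.98 on the high-fat diet and 1.25 in ob/ob. Each kept its sign without normalization, with median centring and after loess, at 0.91 to 0.95 for the diet, 0.13 to 0.24 for ob/ob, -0.97 to -0.86 for NDGA on the diet and 1.36 to 2.02 for NDGA in ob/ob. Its 1 probe leaves no second reading of the gene.

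Aldh3b2 encodes an ALDH for lipid aldehydes. Its brighter probe read 804 on the WT high-fat NDGA array, 420 on the WT high-fat array, 203 on the ob/ob NDGA array, 172 on the ob/ob array and 780 on the WT chow array. Both ob/ob arrays were thus below all 3 WT arrays. The log2 difference of ob/ob against WT was -1.78, and -1.90 to -1.74 under the other scalings. The dimmer probe gave -0.51, from 276 on the ob/ob array against 478 on the WT chow array, and read 409 on the ob/ob NDGA array. On the dimmer probe the ob/ob and WT arrays therefore overlapped, since the WT high-fat array read 273. In WT mice both probes were lower on the high-fat diet (-0.82 and -0.71) and higher with NDGA on that diet (0.79 and 0.45). Its neighbour among the members on chromosome 19, Aldh3b1, an enzyme of the same lipid aldehyde group, was at -0.48 on the high-fat diet and 0.52 with NDGA on it, but at 0.11 in ob/ob.

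Aldh3a2 encodes fatty aldehyde dehydrogenase, which turns long-chain aldehydes into fatty acids and is a known PPAR-alpha target of rodent liver. The brighter probe read 5287 on the WT high-fat NDGA array, 5137 on the WT high-fat array, 10556 on the ob/ob NDGA array, 4315 on the ob/ob array and 3297 on the WT chow array. The dimmer probe read 1069 on the WT high-fat NDGA array, 1317 on the WT high-fat array, 3820 on the ob/ob NDGA array, 476 on the ob/ob array and 464 on the WT chow array. Both probes were lowest on WT chow and highest on the ob/ob NDGA array. They differed in the size of each step. For high-fat diet the log2 differences were 0.60 on the brighter and 1.39 on the dimmer probe. In ob/ob against WT they were 0.71 and 0.24, and NDGA in ob/ob gave 0.22 and 1.99. For NDGA on the high-fat diet the signs disagreed (0.16 and -0.34). The mean of both probes was 1.00 (0.996) for high-fat diet and 1.10 for NDGA in ob/ob. On that mean, unlike on the brighter probe, Aldh3a2 was at least 2-fold higher with NDGA in ob/ob.

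In Adh5 and Aldh8a1 the dimmer probe also passed 2-fold with NDGA in ob/ob, but the mean of both probes, 0.84 and 0.83, did not. Adh5, the formaldehyde and S-nitrosoglutathione enzyme of the ADH family, was at 0.58 on its brighter and 1.11 on its dimmer probe for NDGA in ob/ob. Aldh8a1, an enzyme of tryptophan breakdown, was at 0.38 and 1.29. In ob/ob against WT the probes of Adh5 were at -0.09 and -0.19 and those of Aldh8a1 at 0.03 and -0.43. Over the 933 genes with 2 bright probes, the dimmer probe was higher than the brighter by a median of 0.13 in this comparison, and across genes, which are not independent replicates, the r of brighter with dimmer probe was 0.32. Of the 7 members with 2 probes, Akr1c13 had both probes dim, and Akr1c20 and Aldh3b1 had a second probe that read 2.31 to 6.51 and 12.4 to 24.2 on the 5 arrays.

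**Figure D3:**
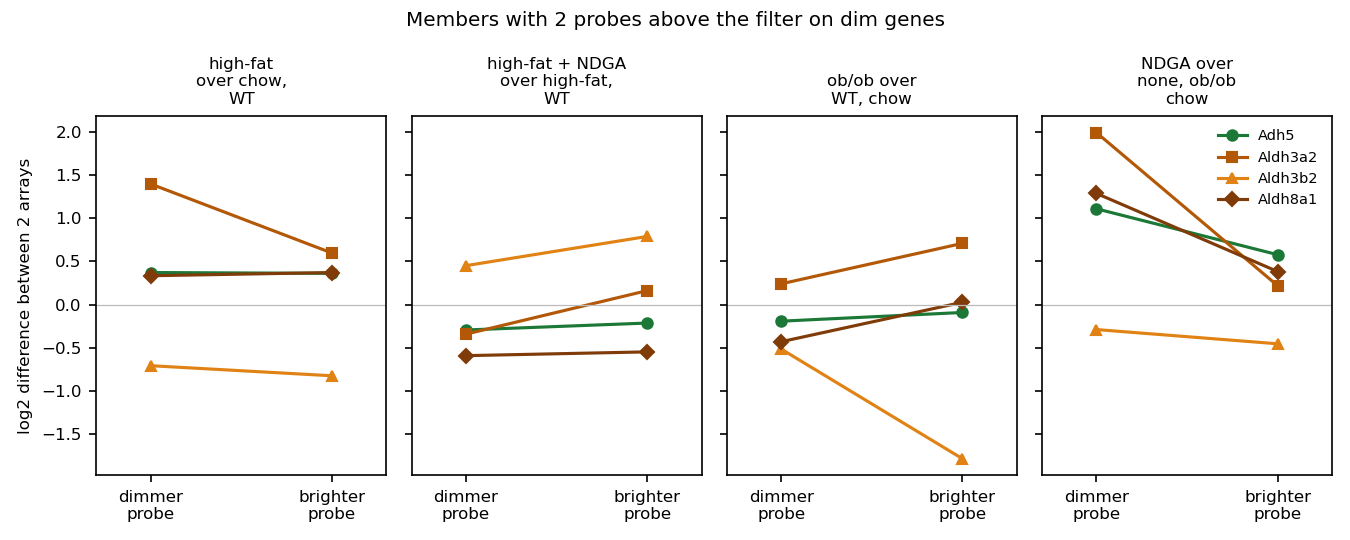
Log2 differences between 2 arrays for the dimmer and the brighter probe of the 4 members with 2 probes above the filter, in the 4 comparisons. With NDGA in ob/ob the dimmer probes of Aldh3a2 (1.99), Aldh8a1 (1.29) and Adh5 (1.11) exceed their brighter probes (0.22, 0.38 and 0.58).

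The ADH genes lie in a row on chromosome 3, in the order Adh7, Adh1, Adh6a, Adh4, Adh5. Adh1, the main ethanol and retinol dehydrogenase of liver, read 34016 on the WT high-fat NDGA array, 40947 on the WT high-fat array, 63463 on the ob/ob NDGA array, 29861 on the ob/ob array and 35936 on the WT chow array. Its differences were between -0.08 and 0.30 after quantile normalization, and its top value is close to the limit of the scanner. With median centring Adh1 was at -0.38 with NDGA on the high-fat diet and 0.63 with NDGA in ob/ob. Adh7, the retinol-oxidising form best known from stomach, read 206 on the WT high-fat NDGA array, 258 on the WT high-fat array, 599 on the ob/ob NDGA array, 167 on the ob/ob array and 282 on the WT chow array. It was at -0.49 in ob/ob and 0.83 with NDGA in ob/ob, and the ob/ob NDGA array was the highest of the 5. The ob/ob array was the lowest before normalization. After quantile normalization it was level with the WT high-fat NDGA array, at 208.8 and 209.3. Adh4, another ADH of liver, was likewise at -0.47 in ob/ob and 0.38 with NDGA. All 4 expressed ADH genes were below 0 with NDGA on the high-fat diet (-0.51 to -0.08) and above 0 with NDGA in ob/ob (0.30 to 0.83), and both held under the other 3 scalings. Of all expressed genes, 47.0% were above 0 in the former comparison and 43.9% in the latter on the quantile scale. In the latter the median of all expressed genes was 0.68 without normalization, 0.23 with median centring and 0.03 after loess. A value above 0 under those scalings therefore does not by itself set the ADH genes apart. Adh1, the lowest of the 4 under each, was at 1.09, 0.63 and 0.21 in the same order. The ob/ob array is shared by the 2 ob/ob comparisons, and the WT high-fat array by the 2 WT diet comparisons.

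Among the retinaldehyde dehydrogenases, Aldh1a1 read 48134 on the WT high-fat NDGA array, 65703 on the WT high-fat array, 65767 on the ob/ob NDGA array, 46208 on the ob/ob array and 54116 on the WT chow array. Because of saturation its differences are no more than partial readings, and they shifted with the scaling. On the high-fat diet they were 0.15 to 0.30 over the 4 scalings and with NDGA on that diet -0.56 to -0.26, while for NDGA in ob/ob they ran between -0.37 after loess and 0.51 without normalization. Aldh1a7, its rodent relative next to it on chromosome 19, was below saturation, with 9694 on the WT high-fat NDGA array, 11657 on the WT high-fat array, 24679 on the ob/ob NDGA array, 8064 on the ob/ob array and 7606 on the WT chow array. It was at 0.54 on the high-fat diet, -0.12 with NDGA on that diet, 0.37 in ob/ob and 0.56 with NDGA in ob/ob. The ob/ob difference of Aldh1a7 was 0.08 without normalization, 0.10 with median centring and 0.30 after loess. With NDGA in ob/ob it was at 1.61, 1.15 and 0.75 in the same order. Whether its probe also binds Aldh1a1 RNA was not tested. Aldh1a2, a retinaldehyde enzyme known from embryos, read 160 to 200 on all 5 arrays before normalization. On the quantile scale it was at -0.45 with NDGA in ob/ob, from 141 against 211, and without normalization at 0.19. Aldh2 read 60579 to 64363 on its 3 unsaturated arrays, close to saturation, and the direction of each of its differences turned with the scaling.

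After Aldh3b2 the widest ob/ob difference belonged to a folate enzyme. Aldh1l1, the cytosolic 10-formyltetrahydrofolate dehydrogenase, read 7739 on the WT high-fat NDGA array, 9152 on the WT high-fat array, 18284 on the ob/ob NDGA array, 5751 on the ob/ob array and 12770 on the WT chow array. Its difference was -0.85 in ob/ob, and -1.14 without normalization, -1.13 median centred and -0.93 after loess. On the high-fat diet it was at -0.53, so both obese groups without NDGA read below WT chow, the array that both differences share. After quantile normalization both NDGA arrays were below WT chow too. The normalized intensity was 14041 on WT chow, 11784 on ob/ob NDGA, 9694 on WT high-fat, 9213 on WT high-fat NDGA and 7783 on ob/ob. A high WT chow array alone could thus give both differences. With NDGA it was at -0.07 on the high-fat diet and 0.60 in ob/ob. The mitochondrial form Aldh1l2 was at -0.56 on the high-fat diet but -0.03 in ob/ob. Aldh4a1, which completes proline breakdown, read 899 on the WT high-fat NDGA array, 1243 on the WT high-fat array, 2528 on the ob/ob NDGA array, 714 on the ob/ob array and 1089 on the WT chow array. It was at -0.35 in ob/ob and 0.87 with NDGA in ob/ob, beside Prodh, the preceding enzyme of the pathway, at -0.95 and 0.99.

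Aldh6a1, which degrades valine, was above 0 in all 4 comparisons on the quantile scale (0.33, 0.08, 0.10 and 0.54), although its ob/ob difference was -0.10 without normalization and -0.09 median centred. Aldh9a1, a carnitine synthesis enzyme, was at -0.62 on the high-fat diet and 0.65 with NDGA on it, from 220 on the WT high-fat NDGA array and 112 on the WT high-fat array against 198 on the WT chow array. Aldh16a1 was at -0.64 with NDGA on the high-fat diet and within 0.2 of 0 elsewhere on the quantile scale, although without normalization it was at 0.77 with NDGA in ob/ob.

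**Figure D4:**
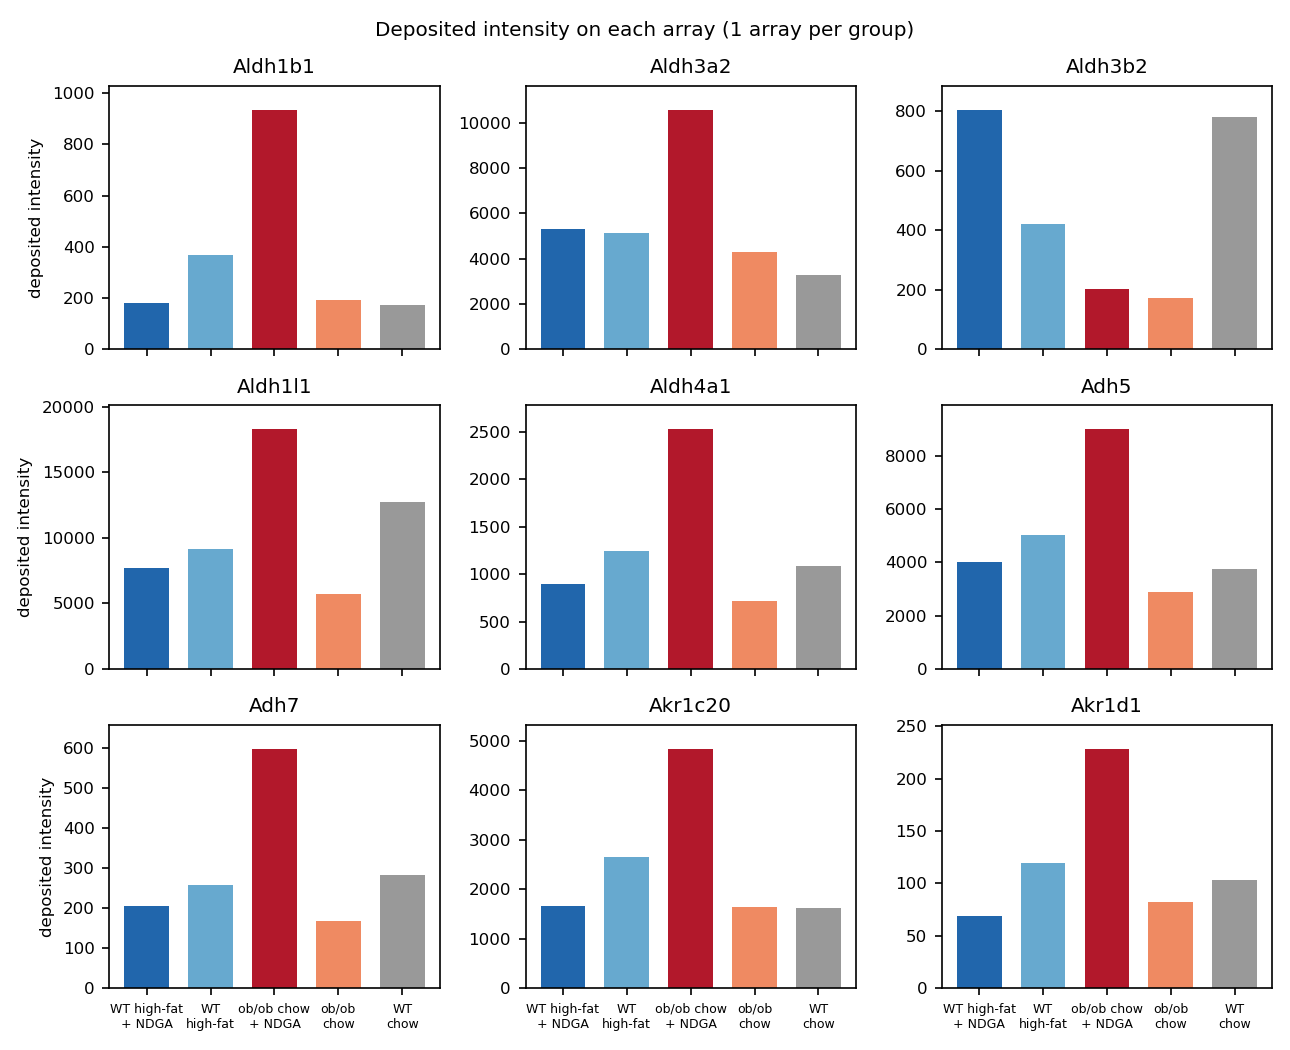
Deposited intensity (linear axis from 0, not normalized) of 9 members on the 5 arrays, 1 bar per array and no error bars because each group has 1 array. Aldh3b2 is at 172 to 203 on both ob/ob arrays and at 420 or more on the WT arrays, while the other 8 are highest on the ob/ob NDGA array, which is brighter for most probes.

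Among the AKR genes, the steroid-reducing AKR1C group is clustered on chromosome 13, and only Akr1c6 and Akr1c20 of its 7 members on the array passed the filter. They are next to each other among the members but had opposite signs on the high-fat diet (-0.23 and 0.71) and in ob/ob (-0.38 and 0.30). Akr1c6, the liver 17-beta-hydroxysteroid dehydrogenase of this group, read 596 on the WT high-fat NDGA array, 695 on the WT high-fat array, 809 on the ob/ob NDGA array, 533 on the ob/ob array and 831 on the WT chow array, and was between -0.38 and -0.23 in all 4 comparisons. In ob/ob with NDGA its sign turned to 0.56 without normalization and to 0.10 with median centring. Akr1c20, a less studied steroid reductase, read 1655 on the WT high-fat NDGA array, 2660 on the WT high-fat array, 4833 on the ob/ob NDGA array, 1634 on the ob/ob array and 1628 on the WT chow array. Its differences with NDGA were -0.71 on the high-fat diet and 0.58 in ob/ob, and that of ob/ob was 0.01 (0.00517) without normalization.

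Akr1d1, the 5-beta-reductase of bile acid and steroid hormone metabolism, read 69.2 on the WT high-fat NDGA array, 120 on the WT high-fat array, 228 on the ob/ob NDGA array, 82.6 on the ob/ob array and 103 on the WT chow array. It was at -0.63 with NDGA on the high-fat diet and 0.48 with NDGA in ob/ob. Cyp7a1, which starts bile acid synthesis, was higher with NDGA in both, by 1.53 and 1.57. Akr7a5, which reduces succinic semialdehyde and toxic aldehydes, was at 0.32 on the high-fat diet, -0.39 with NDGA on it, 0.02 in ob/ob and 0.39 with NDGA in ob/ob. Akr1b8, of the aldose reductase group, was the AKR gene with the largest ob/ob difference in size (0.47, from 335 on the ob/ob array against 267 on the WT chow array) and was at 0.28 to 0.42 under the other scalings.

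The NDGA comparison on the high-fat diet and that in ob/ob share no array. Across 24 members expressed over the 5 arrays and not saturated throughout, the log2 differences of the pair ran in opposite directions for 20 and correlated at r = -0.72 (rho = -0.64). The points share 1 normalization over all 5 arrays. The genes at large had the same pattern: among 8319 expressed genes 74.1% had opposite signs, with r = -0.54 and rho = -0.63. Without normalization 16 of 24 members and 49.1% of the genes had opposite signs, while the member r was -0.69. High-fat diet against chow and NDGA in ob/ob also share no array, and there the member correlation was r = 0.68, against 0.63 over all expressed genes. Olfactory receptors, genes of the nose with no known role in liver, had medians of -0.31 for high-fat diet, 0.47 for NDGA on it, 0.05 for ob/ob and -0.41 for NDGA in ob/ob among the 156 to 168 above the filter. Their medians thus had the opposite sign to those of the members in the first, second and last of these, and their part in the member differences was not tested.

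**Figure D5:**
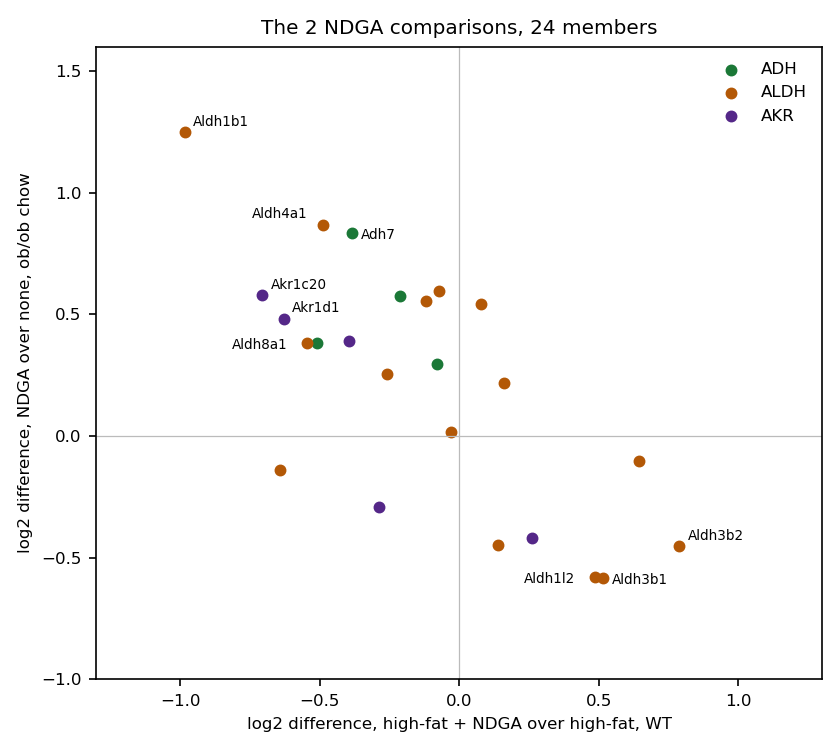
Log2 differences of 24 members with NDGA on the high-fat diet in WT (horizontal) and with NDGA on chow in ob/ob (vertical), by family. Most members lie in the upper left or lower right, as do 74.1% of all expressed genes in sign; Aldh1b1 is at -0.98 and 1.25.

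Markers of other cells also differed between the arrays. Macrophage markers (12 of 14 expressed) had a median of 0.78 for high-fat diet and -0.88 for NDGA on it, with summed normalized intensities of 6457 on the WT high-fat NDGA array, 12143 on the WT high-fat array, 14159 on the ob/ob NDGA array, 15649 on the ob/ob array and 7734 on the WT chow array. Stellate cell and matrix markers (10 on the array) summed to 7970 on the WT high-fat NDGA array, 12569 on the WT high-fat array, 13039 on the ob/ob NDGA array, 10241 on the ob/ob array and 5885 on the WT chow array. The few adipocyte markers on the array (5) summed to 3274 on the WT high-fat NDGA array and to 92.7 to 860 elsewhere. Cfd read 2930 on that array and 19.2 to 709 elsewhere, while Adipoq read 32.3 to 63.0 and Plin1 12.1 to 18.8. In whole liver, fewer cells of a type and less RNA per cell cannot be told apart, and the part of these cells in the member differences was not tested.

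Other genes of the same chemistry and pathways were read from lists. Of 27 other alcohol, aldehyde and ketone enzymes on the array, 24 or 25 were expressed. With NDGA in ob/ob, 5 of 25 passed 2-fold upwards and 0 downwards, beside 6.80% and 0.493% of all expressed genes, with a median of 0.47 against -0.09 for all expressed genes: Cbr4, a mitochondrial carbonyl reductase, at 1.89, Dcxr, a xylulose reductase, at 1.50, Aox1, an aldehyde oxidase, at 1.32, Cryz, a quinone reductase, at 1.32, and Grhpr, the glyoxylate reductase, at 1.01. On the high-fat diet 1 of 24 was at least 2-fold higher (Cryz, 1.01), beside 2.13% of all expressed genes. With NDGA on it 2 of 24 were lower, beside 1.57%, namely Tkfc (-1.61) and Hsd11b1, the cortisone reductase (-1.17). In ob/ob 1 of 25 was higher, beside 1.03%, the carbonyl reductase Cbr3, which read 466 on the ob/ob array and 26.5 on the WT chow array. It passed the filter only through the ob/ob arrays and was below the median probe on WT chow, so no fold is given. Cyp2e1, the ethanol-oxidising cytochrome P450, was at 0.11, 0.02, -0.43 and 0.48 in the 4 comparisons.

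Of retinoid genes, 17 or 18 of 26 were expressed, and none was 2-fold apart except Rdh7 (1.35) and Rdh11 (1.01), retinol dehydrogenases that were higher with NDGA in ob/ob. These were 2 of 17 there, beside 6.80% of all expressed genes. Cyp26a1, which breaks down retinoic acid, was at -0.95 on the high-fat diet. Among 12 expressed partners of the mitochondrial and folate ALDH enzymes, Oat, which feeds ornithine into proline metabolism, was at -1.02 in ob/ob, and Aass, the enzyme that starts lysine breakdown, at 1.28 with NDGA in ob/ob. Of 16 expressed steroid and bile acid enzymes, Hsd3b5, a steroid reductase of mouse liver, read 438 on the WT high-fat NDGA array, 329 on the WT high-fat array, 328 on the ob/ob NDGA array, 197 on the ob/ob array and 10382 on the WT chow array. Only the WT chow array was high, and the log2 differences against it were -4.82 on the high-fat diet and -5.30 in ob/ob. Cyp7b1, an oxysterol hydroxylase, was at -2.86 in ob/ob, and Hsd17b6, a hydroxysteroid dehydrogenase, at 1.53 on the high-fat diet and 1.32 in ob/ob. The medians of the 16 were -0.04 for high-fat diet, 0.13 for NDGA on it, -0.14 for ob/ob and 0.04 for NDGA in ob/ob.

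PPAR-alpha targets had 6 of 12 expressed genes at least 2-fold higher with NDGA in ob/ob (median 1.01), led by Cyp4a14 (2.34) and Decr2 (1.81), beside 6.80% of all expressed genes. Without normalization 32.5% of all expressed genes were, and the targets were not counted on that scale. With NDGA on the high-fat diet 2 of 13 targets were at least 2-fold higher on the quantile scale, Ehhadh (1.34) and Cyp4a14 (1.13), beside 0.914%. On the high-fat diet 1 of 11 was, Decr2 (1.29), beside 2.13%, and in ob/ob 0 of 11, beside 1.03%. Ppara itself was at 0.14 with NDGA in ob/ob and -0.32 with NDGA on the high-fat diet. For Aldh3a2, the member of that regulon, the brighter probe was at 0.22 and 0.16 and the dimmer probe at 1.99 and -0.34 in the same order. NRF2 targets had 4 of 17 expressed genes at least 2-fold higher in ob/ob, beside 1.03% of all expressed genes: Gstm3 (2.37), Srxn1 (1.08), Cbr3 and Abcc4, of which Cbr3 and Abcc4 passed the filter only through the ob/ob arrays. With NDGA on the high-fat diet 4 of 15 were at least 2-fold lower, beside 1.57%: Osgin1 (-1.49), Gstm3 (-1.20), Srxn1 (-1.12) and Hmox1 (-1.09). On the high-fat diet alone Gstm3 (1.65) and Srxn1 (1.63) were higher, 2 of 15, beside 2.13%. With NDGA in ob/ob Srxn1 (1.43) and Gstm3 (1.40) were higher and Osgin1 (-2.34) lower, 2 and 1 of 17, beside 6.80% and 0.493%. The probe of Nfe2l2, which encodes NRF2, read 6.99 to 18.5 and was below the filter.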

How the data were processed

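Cy5-labelled liver RNA of 5 groups had been read on Phalanx Mouse OneArray slides, 1 array per group. The deposited values are linear probe intensities with a background subtracted, as judged from the values: the lowest lie below 0 and 16 to 60 probes per array lie at or above 65000, taken as saturated. The scanner, background method and scaling the authors used are unknown: not given in the sources used here. Of 29922 probes, 21020 had 1 gene symbol in GEO's platform table and 8902 are unnamed here. Symbols were updated through RefSeq (GRCm38.p6): 17558 were current, 3410 replaced and 52 kept, giving 16637 genes.

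Values were quantile normalized over all probes and taken as log2(value + 50); each gene was read by its probe of highest mean deposited intensity. A gene was expressed when its 2-array mean reached the 50th percentile of all genes, and called at a log2 difference of 1. The plan for protein sequence identity was not run, because no protein table was used here. With 1 array per group the number of arrays limits the precision, and no test was made. The 9 other settings listed at the start and 1 added after the data were seen are given at the end. The members and lists were chosen with earlier results of these data known. Named list genes are up to 4 per list and comparison with the largest difference; values on all 5 arrays were to be given for members 2-fold apart and the brightest of each family. The other members so described, Grhpr, Cyp2e1 and single cell markers were chosen after their values were seen, as were the olfactory receptor genes, the motifs and the members whose promoters are printed. Steps were tested on simulated data. Python 3.11.15, numpy 2.4.6, pandas 2.3.3, statsmodels 0.14.6 and matplotlib 3.10.9 were used.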

Additional observations from a re-analysis of the deposited data

Results flagged for a closer look

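For 7 members the difference with NDGA had opposite signs in ob/ob mice on chow and in WT mice on the high-fat diet, each larger than the SD per probe (0.46 in ob/ob and 0.33 in WT). The difference between the 2 effects was not tested, since each rests on 2 arrays, and the background diets differ as well as the genotype. In ob/ob minus WT, the gap was 2.23 for Aldh1b1, 1.36 for Aldh4a1, 1.28 for Akr1c20, 1.22 for Adh7 and 1.11 for Akr1d1, all higher with NDGA in ob/ob and lower with NDGA in WT. It was -1.10 for Aldh3b1 and -1.07 for Aldh1l2, which were lower with NDGA in ob/ob (-0.59 and -0.58) and higher in WT (0.52 and 0.49). In ob/ob these were -0.21 and -0.27 with median centring, -0.43 and -0.45 after loess, and 0.24 and 0.18 without normalization, where the median of all expressed genes was 0.68. By the same rule of opposite signs and size, 7 of 25 members (28%) compare with 24.8% of the 8068 genes expressed in both comparisons. This holds for the quantile scale, and the gap was wider under the other scalings. It was 36% of members against 19.6% of genes without normalization, 48% against 23.5% with median centring and 32% against 21.7% after loess.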

How the results depend on the processing

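Of 24 or 25 expressed members, setting Akr1a1 aside, 8 changed sign in ob/ob against WT without normalization, 7 with median centring and 3 after loess. With NDGA in ob/ob 8, 4 and 3 did, and 0 or 1 in each WT diet comparison. Without normalization the median of expressed members with NDGA in ob/ob was 1.09 and 14 members were at least 2-fold higher, against 8 with median centring, 2 after loess, 2 with the mean of all probes and 4 with the dimmer probe of each member that had 2. For high-fat diet, 1 member was at least 2-fold higher with an offset of 16 and 1 with the dimmer probes; for NDGA on that diet, 1 was lower with an offset of 16. In ob/ob against WT, 2 were at least 2-fold lower without normalization, 2 with median centring and 0 with the dimmer probes. Of all expressed genes 2.45% were at least 2-fold lower without normalization and 2.4% with median centring. The other counts and medians stayed within 1.5 times or within the SD per probe under these and the remaining settings. With the offset of 16, the mean of all probes and the dimmer probes, the share of all expressed genes was not counted. The member counts under those settings therefore have no background to be set against. Of 102 single differences of expressed members, those called at 2-fold were Aldh3b2 in ob/ob and Aldh1b1 with NDGA in ob/ob. Neither of these changed sign. Of the 102, 25 moved by more than the SD per probe without normalization, 9 with median centring, 3 after loess and 0 with an offset of 16. Of the 24 differences of members with 2 probes, 5 moved with the mean of the probes and 16 with the dimmer probe, which was chosen after seeing the data. Selecting members by current symbol added 3 genes (Akr1b10, Akr1cl and Aldh3b3), 1 of them expressed. No paired analysis was possible because each group has 1 array, and for the same reason no array could be left out. Signal limits the 11 dim members, and saturation limits Akr1a1, Aldh1a1 and Aldh2.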
